A study of Mus musculus with 6 samples.

Results

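The 10 genes described here encode the main histone lysine acetyltransferases of the mouse: Ep300, Crebbp, Kat2a, Kat2b, Kat5, Kat6a, Kat6b, Kat7, Kat8 and Hat1. They were taken by name from the 55471 genes of an RNA-seq count table, each was matched to 1 Ensembl identifier, and all 10 were among the 32773 genes tested. The table compares the hippocampus of 3 p300-ifKO mice with that of 3 control littermates, 1 library per mouse. A p300-ifKO mouse carries floxed Ep300 (Ep300_flox), from a strain that the study's methods give as floxed on both alleles, and the Camk2a_creERT2 transgene. This transgene encodes a tamoxifen-activated Cre recombinase driven by the promoter of Camk2a and therefore active in excitatory forebrain neurons. Per the protocol in the labels and the study's methods, controls were littermates without the transgene, but Camk2a_creERT2 stands in the description of every control library. Counts that bear on this are given below. Whether controls carried floxed alleles is not given. All mice were of the strain C57BL/6 (C57BL/6J in the study's methods), were 3 to 6 months old, and received tamoxifen 5 times (20 mg/mL in corn oil). According to the study's methods they were males. Interneurons, glia and vessels of the knock-out hippocampus keep an intact Ep300 gene, since the driver is not active there. The question addressed was whether the transcripts of any other acetyltransferase were more abundant where p300 was eliminated.

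Lysine acetyltransferases transfer an acetyl group from acetyl coenzyme A to lysine side chains of histones and other proteins, a mark of active promoters and enhancers. They fall into families with different partners and preferred lysines. p300 and CBP, encoded by Ep300 and Crebbp, are large paralogous coactivators that acetylate H3K27 and are recruited by CREB and many other transcription factors. Kat2a (GCN5) and Kat2b (PCAF) work inside the SAGA and ATAC complexes and acetylate H3K9. Kat5 (TIP60), Kat6a (MOZ), Kat6b (MORF), Kat7 (HBO1) and Kat8 (MOF) form the MYST family. Hat1 acetylates newly made histone H4 before it is deposited on DNA. In neurons, CBP and p300 are known for their part in activity-driven transcription and in keeping neuronal identity genes active.

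Because related members share sequence, the stretches on which reads could be confused were looked up first. Across the 45 pairs of members, the longest identical coding stretch was 35 bases, shorter than the 50-base reads. The 2 longest among paralogous pairs are given here in 50-base coding windows (GENCODE M21 transcripts, GRCm38), with the identical stretch in capitals. Within coding sequence, an unbroken match of this length is the longest that a read of one paralogue can have with the other.
Ep300: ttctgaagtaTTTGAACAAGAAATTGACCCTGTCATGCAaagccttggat
Crebbp: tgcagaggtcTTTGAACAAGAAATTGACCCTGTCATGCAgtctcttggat
Kat6a: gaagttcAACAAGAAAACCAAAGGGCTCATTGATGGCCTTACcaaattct
Kat6b: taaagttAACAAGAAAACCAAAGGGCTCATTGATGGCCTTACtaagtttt
The 29 identical bases of Ep300 (chr15:81631797-81631825, plus strand) and Crebbp (chr16:4108064-4108092, minus strand) lie in coding exon 18 of either gene, and the windows differ at 8 of 50 bases. The 35 identical bases of Kat6a (chr8:22911820-22911854, plus strand, exon 8) and Kat6b (chr14:21625053-21625087, plus strand, exon 7) sit in windows that differ at 7 of 50 bases. Without gaps, any 50-base coding stretch of Ep300 differed from any of Crebbp at 4 or more bases, and the same minimum held for Kat2a against Kat2b, Kat6a against Kat6b and Kat5 against Kat8. No read from these coding sequences that matched its gene exactly could therefore have come equally well from the coding sequence of another member. Untranslated parts of exons were counted too but were not in this comparison of pairs. Other genes overlapped more: 7.28% of the 50-base stretches of Kat2b also occur elsewhere, in its pseudogene Kat2b-ps, 12.1% of the exonic bases of Kat5 overlap Rnaseh2c on the opposite strand, and 4.22% of those of Kat8 overlap Prss8 on the opposite strand. A strand setting of the counting is not stated, so a small part of the Kat5 and Kat8 counts is uncertain.

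The libraries held 23151568 to 28433823 counts and differed in how their counts followed the length of a gene. Over 17071 genes, the ratio of a library to the mean of the 6 went with exonic length, by a Spearman rho of 0.19 to 0.43 in the 3 control libraries, 0.44 in p300-ifKO replicate 2, and −0.49 and −0.23 in p300-ifKO replicates 1 and 3. Long transcripts were thus low in 2 of the 3 p300-ifKO libraries, and the labels give no batch and no RNA quality value to set beside it. Fold changes of these genes on the log2 scale went with length too (rho −0.44). Since members range from 2.886 kb (Hat1) to 16.826 kb (Kat6b) of exonic length, each result is given with fits that take this trend or 1 library away where that matters. Markers of excitatory neurons, the cells targeted, were abundant. Their summed normalized counts (6 genes) overlapped between groups, at 156204 to 181015 in control and 163904 to 181529 in p300-ifKO. The sums for interneurons, oligodendrocytes, microglia, endothelium, choroid plexus and blood overlapped too. Single markers stood apart: Gad1 (interneurons), Pecam1 (endothelium) and Slc1a3 (astrocytes) as lower, and Csf1r (microglia) as higher, named after their values were seen. Over all genes 3.42% stood apart as lower and 3.21% as higher. Of the 41 marker genes of 8 cell types or tissues 0 passed in DESeq2, 1 had an unadjusted p under 0.05 (the astrocyte gene Slc1a3), and none was at 0 in any library. Astrocyte markers summed to 37965 to 39502 in control and 35473 to 36823 in p300-ifKO, and their part in the results below was not tested. The transgene was checked by the 2 genes that passed over the whole table, which were looked at after their values were seen. Esr1, the estrogen receptor gene whose ligand-binding domain is part of creERT2, was at 109, 87.2 and 108 normalized counts in controls and at 4217, 2416 and 2868 in p300-ifKO libraries. The other, Arsi, was at 24.2 to 38.8 and 168 to 204. Both set all 3 p300-ifKO libraries, replicate 2 included, far above all 3 controls. The study describes raised Arsi and Esr1 as a feature of mice with this transgene, and the 3 controls did not show it. In whole hippocampus, fewer cells of a type cannot be told apart from less RNA per cell.

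Ep300 was lower in p300-ifKO mice, and it was the member with the largest difference between groups. Ep300 (ENSMUSG00000055024, chr15:81585351-81652077) was at 1545, 1474 and 2334 normalized counts (reads scaled for the depth of the library) in controls, against 478, 1350 and 912 in p300-ifKO mice. The highest p300-ifKO library was still under the lowest control, but p300-ifKO replicate 2 lay close to the lower control mice and control replicate 3 stood well above the other 2. Its log2 fold change of −0.97 (95% interval −1.62 to −0.31), or −48.8%, had a DESeq2 p of 0.00369 before adjustment and 0.991 after it, and so did not pass 0.05. None of the 10 members passed, and Ep300 was the only one with an unadjusted p under 0.05 in DESeq2. Of all genes tested, 0.0061% passed, 0% passed as lower, 1.32% had an unadjusted p under 0.05 (0.546% lower and 0.772% higher), and 3.42% had p300-ifKO libraries that all lay below the control libraries, as Ep300 did. Members passing also numbered 0 with edgeR and limma-voom (background 0.0117%), with a filter on low counts (0.0116%), with a replicate block (0.0122%), and without control replicate 1 (0.00933%), 2 (0.0062%) or 3 (0.00633%) or p300-ifKO replicate 1 (0.0062%) or 3 (0.00622%). Without p300-ifKO replicate 2 the log2 fold change was −1.36 and passed (adjusted p 0.000356 in DESeq2), in a fit in which 8.43% of the genes with an adjusted p passed, 4.43% as higher and 4% as lower. With 1 surrogate variable, a factor over the libraries estimated from the counts themselves, it was −0.48 and passed as well (adjusted p 0.00127 in DESeq2), where 3 of 32774 genes did (0.00915%) and Ep300 was the 1 that was lower (0.00305%). Without p300-ifKO replicate 1, the library with the lowest Ep300, it was −0.66 with an interval that spans 0 (−1.35 to 0.034, DESeq2 unadjusted p 0.0622). The surrogate variable was at 0.082, 0.048 and 0.50 in controls and at −0.79, 0.31 and −0.14 in p300-ifKO libraries. It thus differed in part with the groups, and its fit treats it as known.

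A count per gene includes the truncated message. Per the study's methods, recombination leaves a shortened p300 protein without acetyltransferase activity, and names it by its stop residue without naming the floxed exon. Of the 29 internal coding exons of Ep300-201, the loss of any 1 removes between 0.596% and 6.669% of the transcript's bases, and the loss of 12 of them shifts the reading frame. For none of the 29 exons does its loss alone put the stop codon of Ep300-201 at the residue that the study names. The stop nearest to it, at residue 595, comes from loss of exon 9. Farther off are the stops from loss of exon 10 or exon 7, at residue 636 or 513. Loss of exon 9, 10 or 7 removes 1.234%, 1.829% or 0.983% of the bases. Which exon or exons are floxed was not tested. The remaining exons stay countable wherever the shortened message persists, so the difference in Ep300 counts need not equal the share of recombined cells. How far the shortened message persists was not tested, and counts per gene cannot tell the 2 apart.

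**Figure D1:**
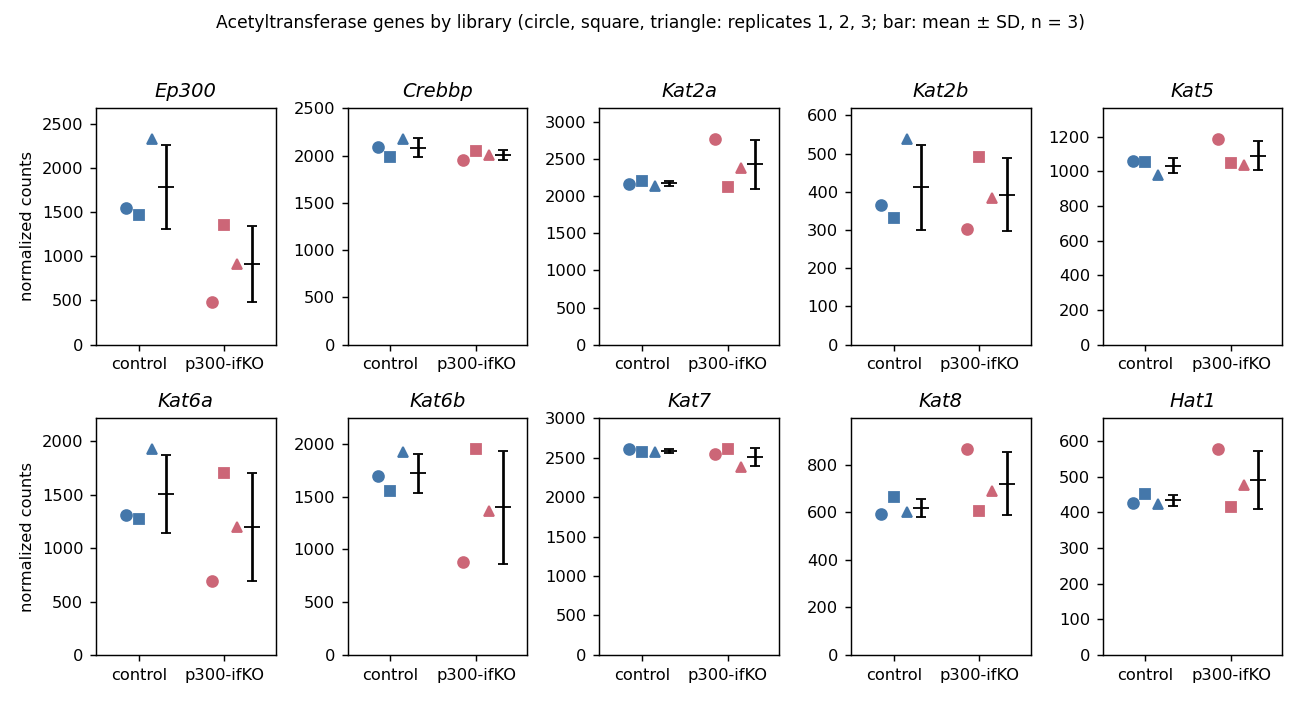
Normalized counts (y axis) of the 10 acetyltransferase genes in the 3 control (blue) and 3 p300-ifKO (red) libraries, with replicates 1, 2 and 3 as circle, square and triangle and the mean ± SD (n = 3) in black. Only for Ep300 do the groups stand apart, and the p300-ifKO circle is the lowest point for Ep300, Crebbp, Kat2b, Kat6a and Kat6b but the highest for Kat2a, Kat5, Kat8 and Hat1.

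Ep300 was next set against the other members of the same library, a comparison chosen after seeing the data. Divided by Kat6a, Ep300 was 1.18, 1.16 and 1.21 in control mice and 0.693, 0.793 and 0.759 in p300-ifKO mice. Divided by Kat6b, it was 0.913, 0.947 and 1.21 in controls against 0.540, 0.692 and 0.669 in p300-ifKO mice. The 3 p300-ifKO mice lay close together on these scales, at 0.633 and 0.618 of the control mean, whereas the Ep300 counts themselves spread from 478 to 1350. Among the members, Kat6a and Kat6b had the most positive correlations with Ep300 over these same libraries (r 0.92 and 0.93). The closeness therefore follows from which genes Ep300 was divided by. Divided by Crebbp, Ep300 was 0.740, 0.743 and 1.07 in controls against 0.244, 0.657 and 0.454 in p300-ifKO mice. Across the 9 genes the p300-ifKO ratio lay at 0.470 to 0.633 of the control ratio. These ratios share Ep300 as their numerator and so are 1 observation seen on 9 scales, not 9 observations. In 8 of 9 ratios all p300-ifKO libraries were under all controls, and the exception was Kat8, by which p300-ifKO replicate 2 and control replicate 2 were equal to 3 digits (2.22). The Ep300 counts alone already set the groups apart, as 3.42% of all genes did as lower. The number of ratios that stand apart therefore adds no further support.

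**Figure D2:**
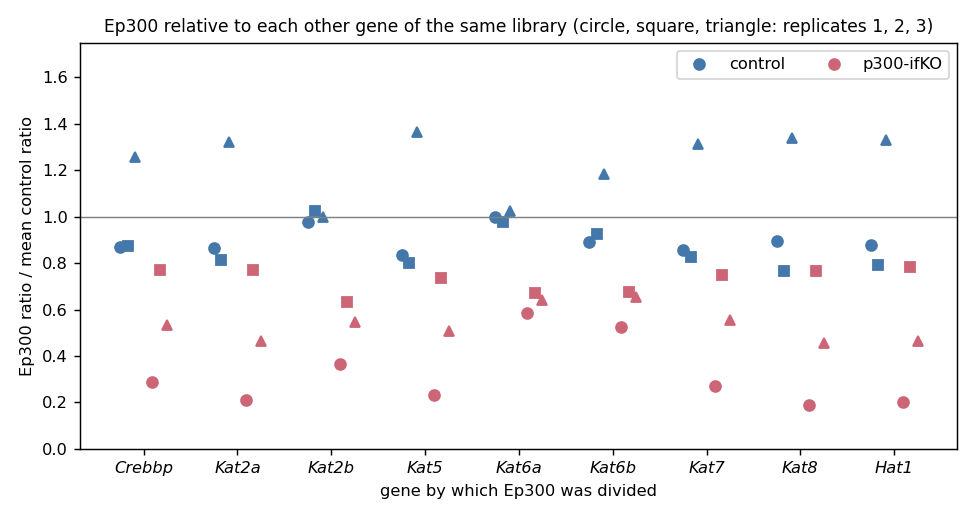
Ratio of Ep300 to each of the 9 other acetyltransferase genes in the same library, relative to the mean control ratio (y axis), for control (blue) and p300-ifKO (red) replicates 1, 2 and 3 (circle, square, triangle). The p300-ifKO points lie below the control points for 8 of 9 genes, and are tightest for Kat6a and Kat6b.

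Crebbp, which encodes the paralogue CBP, was nearly level between groups. Crebbp (ENSMUSG00000022521, chr16:4081328-4213997) had 2089, 1984 and 2180 normalized counts in controls against 1957, 2055 and 2008 in p300-ifKO mice. The ranges overlapped, and the p300-ifKO libraries lay within the spread of the controls except for replicate 1, just below. On the log2 scale the difference was −0.055 (SE 0.11, DESeq2 adjusted p 0.991) with a 95% interval of −0.26 to 0.15, which spans changes from −16.7% to 11.3%. With length offsets, which take the smooth length trend out of each library, the estimate changed sign, to 0.17 (95% interval −0.12 to 0.45), which leaves room for a rise of up to 36.5%. With length and GC offsets it was 0.11, and with 1 surrogate variable −0.016. None of these passed the test.

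On a scale per kb of exonic length, Ep300 and Crebbp can be added. The sum was 263, 249.8 and 324 normalized counts per kb in controls against 178, 246 and 212 in p300-ifKO mice, with means of 279 ± 40.0 and 212 ± 34.2 (SD, n = 3). The sum was 23.9% lower, and the highest p300-ifKO mouse lay just under the lowest control mouse. This sum takes no account of the length trend, and both genes are long. With length offsets Ep300 was at −42.7% and Crebbp at 12.2%, beside −48.8% and −3.72% without them, which leaves a smaller fall of the sum. Ep300 made up 44.3% ± 5.25 of the sum in control and 29.1% ± 9.83 in p300-ifKO mice (SD, n = 3). Ep300 itself was lower by 61.0 per kb (125 ± 33.4 against 64.0 ± 30.6), and the upper limit of the interval of Crebbp allows a rise of 17.4 per kb, or 28.6% of that difference. With length offsets the limit of Crebbp was 56.1 per kb and the difference of Ep300 53.3 per kb, so that a rise as large as the difference (105%) lay within the interval. For the other members, the limits came to 358% (Kat2a), 167% (Kat8), 122% (Kat5) and 104% (Hat1) of the Ep300 difference, and to 89.4% (Kat7), 54.4% (Kat6a), 47.7% (Kat2b) and 27.0% (Kat6b). Rises as large as the Ep300 difference were thus within the intervals of 4 members in the fit of all 6 libraries. With length offsets the limit of Kat7 came to 153% of the Ep300 difference and that of Hat1 to 91.9%.

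**Figure D3:**
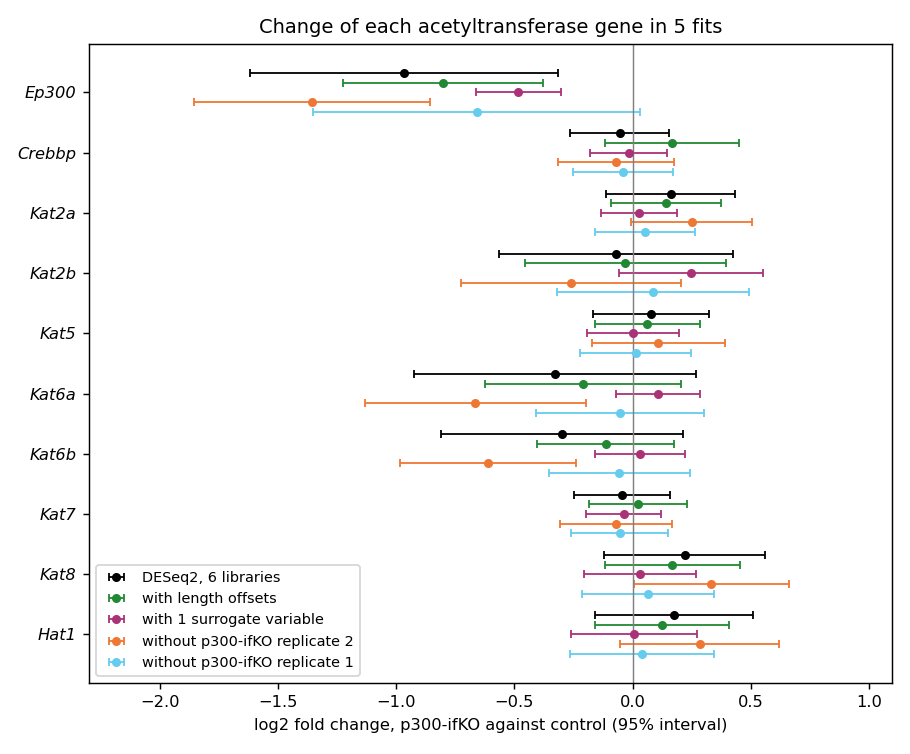
Log2 fold change of each acetyltransferase gene in p300-ifKO against control mice (x axis) with its 95% interval, in the DESeq2 fit of all 6 libraries (black), with length offsets (green), with 1 surrogate variable (purple), without p300-ifKO replicate 2 (orange) and without p300-ifKO replicate 1 (light blue). The interval of Ep300 lies below 0 in 4 of the 5 fits and reaches 0.034 without p300-ifKO replicate 1, and that of Crebbp spans 0 in each of the 5.

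Of the 9 members other than Ep300, 4 were higher and 5 lower in p300-ifKO, with a median log2 fold change of −0.043, beside −0.046 for all genes tested. None of the 9 passed in DESeq2, edgeR or limma-voom, and none had an unadjusted p under 0.05 in DESeq2, beside 1.32% of all genes. In none did the groups stand apart, which they did in 3.42% of all genes as lower and in 3.21% as higher. The 4 higher genes were Kat2a, Kat5, Kat8 and Hat1, which are the 4 shortest. With length offsets, 6 of the 9 were higher.

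The pair of SAGA and ATAC acetyltransferases differed in level and in spread. Kat2a (GCN5; ENSMUSG00000020918, chr11:100704746-100712465) had 2170, 2204 and 2145 normalized counts in controls against 2776, 2131 and 2382 in p300-ifKO mice. The control mice were nearly equal and p300-ifKO replicate 1 stood highest, with replicate 2 below every control. The log2 fold change was 0.16 (95% interval −0.11 to 0.43, adjusted p 0.991 in DESeq2), or 0.053 without p300-ifKO replicate 1. Kat2b (PCAF; ENSMUSG00000000708, chr17:53566861-53672720) had 365, 332 and 539 normalized counts in controls against 302, 491 and 384 in p300-ifKO mice, for a log2 fold change of −0.069 (95% interval −0.56 to 0.43). Its highest values were in control replicate 3 and p300-ifKO replicate 2, and its sign changed without control replicate 3 (0.18), without p300-ifKO replicate 1 (0.086) or with 1 surrogate variable (0.25).

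In the MYST family, the long genes Kat6a and Kat6b varied by library and the others were steadier. Kat6a (MOZ; ENSMUSG00000031540, chr8:22859535-22943259) had 1310, 1275 and 1929 normalized counts in controls against 690, 1704 and 1203 in p300-ifKO mice. Kat6b (MORF; ENSMUSG00000021767, chr14:21481434-21672478) had 1692, 1556 and 1922 in controls against 885, 1952 and 1365 in p300-ifKO mice. For both genes p300-ifKO replicate 1 was lowest, but replicate 2 was above 2 or more of the control mice, so that the groups overlapped. Their log2 fold changes were −0.33 (SE 0.30) and −0.30 (SE 0.26), neither past the threshold (DESeq2 adjusted p 0.991 for both). When p300-ifKO replicate 2 was left out they were −0.67 and −0.61, with adjusted p of 0.0545 and 0.0324 in DESeq2, so that Kat6b passed as lower in a fit in which 4% of the genes with an adjusted p did. With 1 surrogate variable both changed sign, to 0.11 and 0.032.

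Kat7 (HBO1; ENSMUSG00000038909, chr11:95274259-95310246), which acetylates H3K14 with its partners, had the smallest spread relative to its mean among controls. It had 2609, 2577 and 2569 normalized counts in controls against 2540, 2604 and 2381 in p300-ifKO mice, for a log2 fold change of −0.043 (95% interval −0.25 to 0.16). The upper limit of that interval was a rise of 11.7%, but 17.5% with length offsets, where the sign changed (0.025), and up to 22.6% when 1 library was left out. Kat5 (TIP60; ENSMUSG00000024926, chr19:5603014-5610237) had 1059, 1056 and 981 in controls against 1188, 1049.8 and 1034 in p300-ifKO mice, for a log2 fold change of 0.079 (95% interval −0.17 to 0.33). Kat8 (MOF; ENSMUSG00000030801, chr7:127912516-127925837), which acetylates H4K16, had 593, 663 and 600.03 in controls against 867, 607 and 690 in p300-ifKO mice. Only replicates 1 and 3 of the p300-ifKO mice exceeded the control range of Kat8, and its log2 fold change of 0.22 (95% interval −0.12 to 0.56, unadjusted p 0.205 in DESeq2) was the highest of the 10. Without p300-ifKO replicate 1 it was 0.066.

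Hat1 (ENSMUSG00000027018, chr2:71388958-71441622) had 426, 452 and 425 normalized counts in controls against 578, 416 and 477 in p300-ifKO mice, the same order of p300-ifKO libraries as Kat2a and Kat8. Its log2 fold change was 0.18 (95% interval −0.16 to 0.51, adjusted p 0.991 in DESeq2), and 0.040 without p300-ifKO replicate 1. In the fit of all 6 libraries, the wide intervals of Kat8 and Hat1 leave rises of up to 47.6% and 42.2% possible. For Kat2a, Kat2b and Kat5 the limits were 35.0%, 34.4% and 25.3%, and for Kat6a and Kat6b 20.6% and 16.1%. These limits moved with single libraries: without control replicate 3 they were 59.9% for Kat2b, 45.2% for Kat6a and 30.6% for Kat6b, with p300-ifKO replicate 2 left out 15.1%, −12.9% and −15.2%, and with p300-ifKO replicate 3 left out 46.0%, 28.6% and 25.3%. Leaving out control replicate 3 took the limit of Crebbp to 21.2%, and leaving out control replicate 1 took it to 19.9%, the same as leaving out p300-ifKO replicate 3. Without p300-ifKO replicate 1 those of Kat2a, Kat8 and Hat1 were 20.3%, 27.1% and 27.0%. They were larger without control replicate 2, at 45.5%, 63.5% and 56.2%, and without p300-ifKO replicate 3, at 45.8%, 61.6% and 55.3%.

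Levels were then compared between members, per kb of exonic length. In control mice Kat2a was highest at 624 ± 8.54 normalized counts per kb, followed by Kat7 at 467 ± 3.86, Kat5 at 294 ± 12.6 and Kat8 at 214 ± 13.4 (SD, n = 3). Down to Kat8, the ranges of neighbours in this order did not overlap. Below it came Kat6a at 161 ± 39.4, Crebbp at 154 ± 7.25, Hat1 at 150.4 ± 5.35, Ep300 at 125 ± 33.4, Kat6b at 102 ± 10.98 and Kat2b at 84.6 ± 22.8, and from Kat8 downward each gene overlapped the next. In p300-ifKO mice Ep300 was the lowest of the 10, at 64.0 ± 30.6, overlapping Kat2b at 80.6 ± 19.5. With the longest annotated transcript as the length, 4 of the 10 genes kept their rank in control mice and Kat7 (726) came before Kat2a (665). In p300-ifKO mice that length put Ep300 (95.5) above Kat2b (84.3), so that Ep300 was no longer the lowest.

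**Figure D4:**
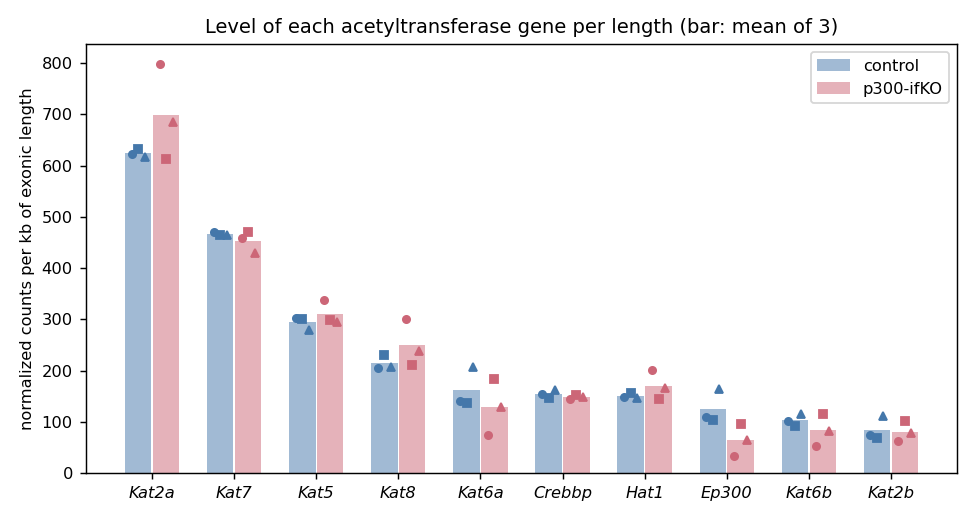
Level of each acetyltransferase gene in normalized counts per kb of exonic length (y axis), as the mean of 3 control (blue) and 3 p300-ifKO (red) mice (bars) with the libraries as points. Genes are in the order of their control level, from Kat2a at 624 to Kat2b at 84.6, and Ep300 is the only gene whose points do not overlap between groups.

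Levels of the members were also compared across the 6 libraries. Over the 6 libraries, log2 levels of Kat6b and Kat6a correlated with those of Ep300 (Pearson r 0.93 and 0.92), those of Kat2a, Kat8, Hat1 and Kat5 ran opposite (r −0.94 to −0.89), and Crebbp, Kat2b and Kat7 lay between (0.82, 0.70 and 0.41). These are descriptions over 6 libraries that share the length trend. Of 12244 genes with a mean normalized count of at least 100, the 3 most like Ep300 were R3hdm1, Nwd2 and Dock8 (r 0.997, 0.995 and 0.994), all with 10 kb or more of exonic sequence. Nwd2 had 855, 853 and 964 normalized counts in controls against 519, 788 and 673 in p300-ifKO mice (log2 fold change −0.43). The p300-ifKO libraries of R3hdm1 and Dock8 were also all under the controls, and for genes picked by their likeness to Ep300 in these libraries this is part of the choice. Across the members, the log2 fold change went down with exonic length (Spearman rho −0.88, n = 10 genes that share the 6 libraries). The smooth length trend came to −0.22 on the log2 scale at the length of Ep300, −0.21 for Crebbp, −0.24 for Kat6b and −0.16 for Kat6a, and to 0.046 for Kat8 and Hat1. With that trend removed, Ep300 was at −0.80 (95% interval −1.23 to −0.38, unadjusted p 0.000199 and adjusted p 0.973 in DESeq2).

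Genes that encode the partners of these enzymes, and other proteins with a reported acetyltransferase activity, were examined as 6 lists of 72 genes in all. None passed in DESeq2, none had an unadjusted p under 0.05, and edgeR and limma-voom called none either. Higher values were seen for 30 of the 72 and lower ones for 42 (median −0.038). Of the 16 other acetyltransferases, 4 were higher and 12 lower, with the smallest unadjusted p for Naa50 (N-terminal acetyltransferase; log2 fold change −0.18, SE 0.13), which was lower in 3 of 3 p300-ifKO mice than in any control. The highest was Naa10, an N-terminal acetyltransferase, at 0.28 (SE 0.20), and the lowest Esco2, the cohesin acetyltransferase of dividing cells, at −1.33 (SE 1.11) with means of only 4.79 normalized counts in control and 1.86 in p300-ifKO mice. Of the 72 genes 4 separated the groups: Naa50 and Esco2 as lower, and Mbip and Kansl2 as higher (Mbip was named after its values were seen). Over all genes 3.42% separated as lower and 3.21% as higher, so these 4 are near the background.

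Subunits of SAGA and ATAC were split, with 9 of 17 higher and 8 lower. Sgf29, which reads methylated H3K4 for these complexes, had the highest value, with 262, 256 and 192 normalized counts in controls against 435, 232 and 314 in p300-ifKO mice, which came to 0.47 on the log2 scale (SE 0.26, DESeq2 unadjusted p 0.0741). The groups overlapped through p300-ifKO replicate 2, and without that library Sgf29 passed (0.67, adjusted p 0.0472 in DESeq2). In that fit 2 of the 72 genes passed, Sgf29 as higher and Hcfc1 as lower, beside 4.43% and 4% of all genes with an adjusted p. Tada1 was lowest at −0.25 (SE 0.24). Of the TIP60 subunits 9 of 15 were higher, from −0.16 for the chromatin remodeller Ep400 to 0.30 for Dmap1 (SE 0.19, the smallest unadjusted p, 0.108).

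Subunits of the MOZ, MORF and HBO1 complexes were lower in 9 of 9 genes, with a median of −0.12, and 0 of 9 passed. They ran from −0.28 for Ing4, a reader of H3K4 trimethylation, to −0.024 for Brpf3, and Meaf6, a small subunit shared by these complexes, had the smallest unadjusted p (−0.12, SE 0.12, p 0.307 in DESeq2). Of the MSL and NSL subunits 3 of 10 were higher, between −0.26 for Ogt, the O-GlcNAc transferase, and 0.20 for Kansl2. Hcfc1 of this list, named after its values were seen, was at −0.48 with p300-ifKO replicate 2 left out (DESeq2 adjusted p 0.0243), where 4% of genes passed as lower. All 5 partners of Hat1 were higher, from 0.057 for Rbbp7 to 0.37 for the histone chaperone Asf1b (SE 0.48), and Rbbp4 had the smallest unadjusted p (0.11, p 0.335 in DESeq2). Directions within the lists went with length: of the 42 genes of the lists and the members above 5 kb of exonic length 36 were lower, and of the 40 at or under 5 kb 28 were higher. Over all 32773 genes tested, 14841 were higher and 17932 lower.

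**Figure D5:**
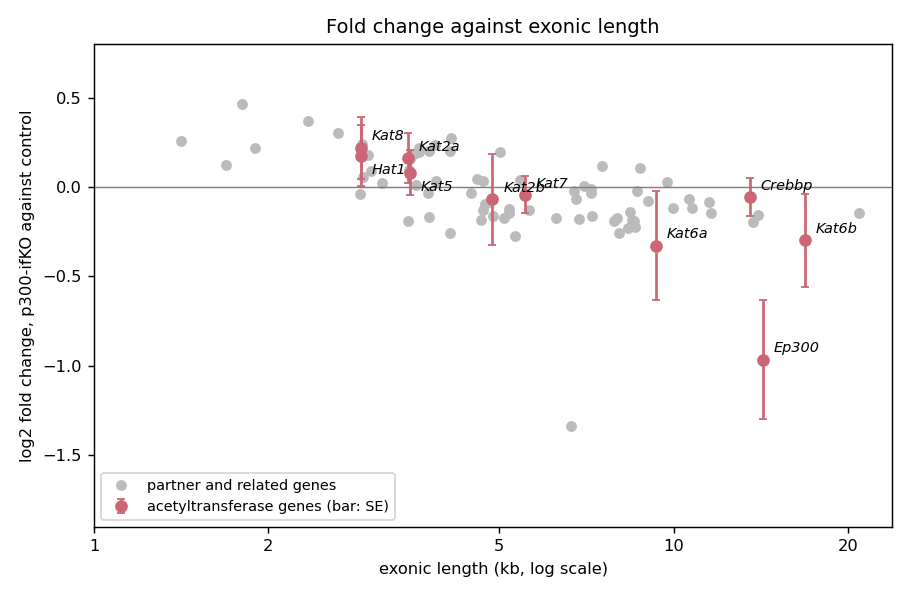
Log2 fold change in p300-ifKO against control mice (y axis) against exonic length in kb (x axis, log scale) for the 10 acetyltransferase genes (red, with SE) and 72 partner and related genes (grey). Genes above 5 kb lie mostly below 0 and shorter genes mostly above it, and Ep300 lies at −0.97, below every other gene but Esco2 (−1.33).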

How the data were processed

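RNA-seq of hippocampal total RNA was used, with 1 library per mouse (3 control, 3 p300-ifKO; groups from the sample titles). The authors deposited raw counts of reads per gene: single-end 50 bp reads were, per the submitters' processing notes and the study's methods, trimmed with Trim Galore 0.6.4, aligned with STAR 2.6.1 to GRCm38, kept above a mapping quality of 10 and counted on exons of Ensembl genes with Rsubread. That limit lowers counts of genes with near-identical copies. The exonic length, in bases, is also the authors' column. Columns of samples left unused numbered 0. Of 55471 identifiers, 55144 (99.41%) matched GENCODE M21 (GRCm38), which gave symbols, coordinates and transcript sequences; all 123 list genes matched.

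The comparison used the DESeq2 Wald test (version 1.42.0, R 4.3.3; two-sided, default filters, no covariate, threshold 0.05), fitted on all genes with Benjamini-Hochberg adjustment over 32773 genes, after the study's methods, which name DESeq2 1.30.1. Counts over the size factor that DESeq2 gives a library are called normalized counts; 95% intervals are Wald intervals. Alternatives were edgeR 4.0.16 (quasi-likelihood), limma-voom 3.58.1, TMM factors, filters (at least 10 counts in 3 libraries, none), a replicate block, 1 surrogate variable (sva 3.50.0), smooth length or length and GC offsets (mgcv 1.9.3, genes with a mean above 10; GC of the longest transcript) and leaving out each library. DESeq2, edgeR, limma-voom and the length offsets were also run on simulated counts, and the other alternatives were not. Those counts held no length trend, so that run does not tell how the fits deal with it. Members and lists were chosen with earlier results of these data known. All members are named; of each further list, the gene with the smallest unadjusted p and those with the highest and lowest log2 fold change; and the 3 genes most like Ep300. The ratios within a library were added after seeing the data.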

Additional observations from a re-analysis of the deposited data

How the results depend on the processing

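The count of acetyltransferase genes called, 0, was the same under 15 of 17 alternatives. It was 1 (Ep300) with 1 surrogate variable and, leaving out one replicate each, between 0 and 2, the 2 being Ep300 and Kat6b without p300-ifKO replicate 2. Ep300 ranged from −1.36 to −0.66 across the fits that left out a replicate and was −0.48 with 1 surrogate variable (adjusted p 0.00127 in DESeq2), and its adjusted p over all alternatives ran from 0.000356 to 1. Crebbp changed sign with length offsets (0.17) and with length and GC offsets (0.11), and ranged from −0.087 to −0.018 without single replicates. Of the 9 other members 4 were higher, but 7 with 1 surrogate variable and 6 with length offsets or with length and GC offsets. Without control replicate 3 or without p300-ifKO replicate 1, 5 of the 9 were higher. Partner genes called were 0 to 2 without single replicates.

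With 1 surrogate variable, signs also changed for Kat2b (0.25), Kat6a (0.11), Kat6b (0.032), Asf1b (−0.071), Brpf3 (0.15), Ep400 (0.0017), Rbbp7 (−0.027) and Tada1 (0.025). With length offsets they changed for Kat7 (0.025), Brpf3 (0.10) and Ep400 (0.051), and with length and GC offsets for Kat7 (0.015) and Brpf3 (0.042). Without single replicates Kat2b ran from −0.26 to 0.18 (without p300-ifKO replicate 1, 0.086) and Brpf3 from −0.17 to 0.12. The cause was not tested. The order of levels kept 4 of 10 ranks with the longest transcript as the length.

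Mice with the same number share only that number: their deviations from the mean of the group had correlations of 0.27, −0.28 and 0.14 for numbers 1, 2 and 3. With a replicate block, Ep300 was −1.06 (adjusted p 0.134 in DESeq2), 0 members passed and 4 genes of 32774 did. With 3 mice a group and adjustment over all genes, a gene such as Ep300 can have an interval that excludes 0 and still not pass.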
